A study of Homo sapiens with 5 samples.

Results

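The genes described here are the enzymes of cholesterol synthesis and the regulators of SREBP2, the transcription factor that controls them, in RS4;11 cells treated with an inhibitor of the kinase GSK-3. They were taken from a list of 26 gene symbols, chosen with earlier results of these data known. Each was matched to probes that name that gene alone, with the brightest probe used where there were several. Of the 26 genes, 24 had such a probe, among 18417 genes tested in all. FDFT1, squalene synthase, was not analysed here, and HSD17B7, a sterol keto reductase, was named only by a probe shared with its pseudogene HSD17B7P2.

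RS4;11 is a human leukemia cell line with a rearranged MLL gene, grown here in culture. Cells on 2 arrays received the solvent DMSO and are called control, and cells on 3 arrays received SB216763, a small-molecule inhibitor of GSK-3, at 10 uM. Both treatments lasted 20 h, and total RNA was hybridised to Affymetrix whole-transcript arrays. Nothing in the labels says that the arrays came from separate cultures, and the spread behind every p-value is that between these arrays, possibly a technical one.

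Cells build cholesterol from acetyl-CoA through mevalonate, the isoprenoid diphosphates, squalene and lanosterol. When sterols are scarce in the endoplasmic reticulum, the escort protein SCAP carries SREBP2 to the Golgi, where it is cleaved, and the freed fragment enters the nucleus and raises transcription of most enzymes of the route. When sterols are plentiful, INSIG1 and INSIG2 hold SCAP back. INSIG1 and SREBF2, the gene of SREBP2, are themselves SREBP targets, so their transcripts are often read together with those of the enzymes. Transcript levels on an array do not measure SREBP2 cleavage, enzyme activity or cholesterol.

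With SB216763, 14 of the 24 measured genes fell and 0 rose, by limma with Benjamini-Hochberg adjustment over all 18417 genes at a threshold of 0.05. Among all genes tested, 5.92% were called lower and 7.21% higher. All 24 genes were above array background on all 5 arrays, and of the 12071 genes for which this held, 8.51% were called lower. The other 10 of the 24 were not called, and 2 of them, GGPS1 and TM7SF2, were higher at an unadjusted p under 0.05, as were 14.3% of all genes. The largest decreases were in DHCR7, which makes cholesterol from its last precursor on 1 of the routes, at 3.49-fold, INSIG1 at 3.29-fold and SQLE, squalene epoxidase, at 2.24-fold. These were the 3 genes called lower by at least 2-fold, as were 0.288% of all genes. Every difference given is the treated mean minus the control mean in log2 units, over n = 2 control and n = 3 treated arrays. The median of the 24 differences was -0.45, and over all genes tested it was 0.00.

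With 1 control array, limma called almost no gene of any kind. It called 0 of the 24 genes and 1 gene lower of all 18417, 0.00543%, without control replicate 1, and 0 of the 24 and 0 of all genes, 0%, without control replicate 2, so these counts say nothing about the 24 in particular. In each case 13 of the 24 were lower at an unadjusted p under 0.05, where 10.3% of all genes were without control replicate 1 and 8.98% without control replicate 2. With all 5 arrays that number was 16, against 12.2% of all genes. Calls over all genes also fell in the next settings. Without SB216763 replicate 1 limma called 9 of the 24 lower and 2.46% of all genes, and a linear model with no moderation of variances called 2 of the 24, SQLE and INSIG1, and 0.679% of all genes. The median difference ranged from -0.47 to -0.39 over the 5 fits that each omit an array.

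**Figure D1:**
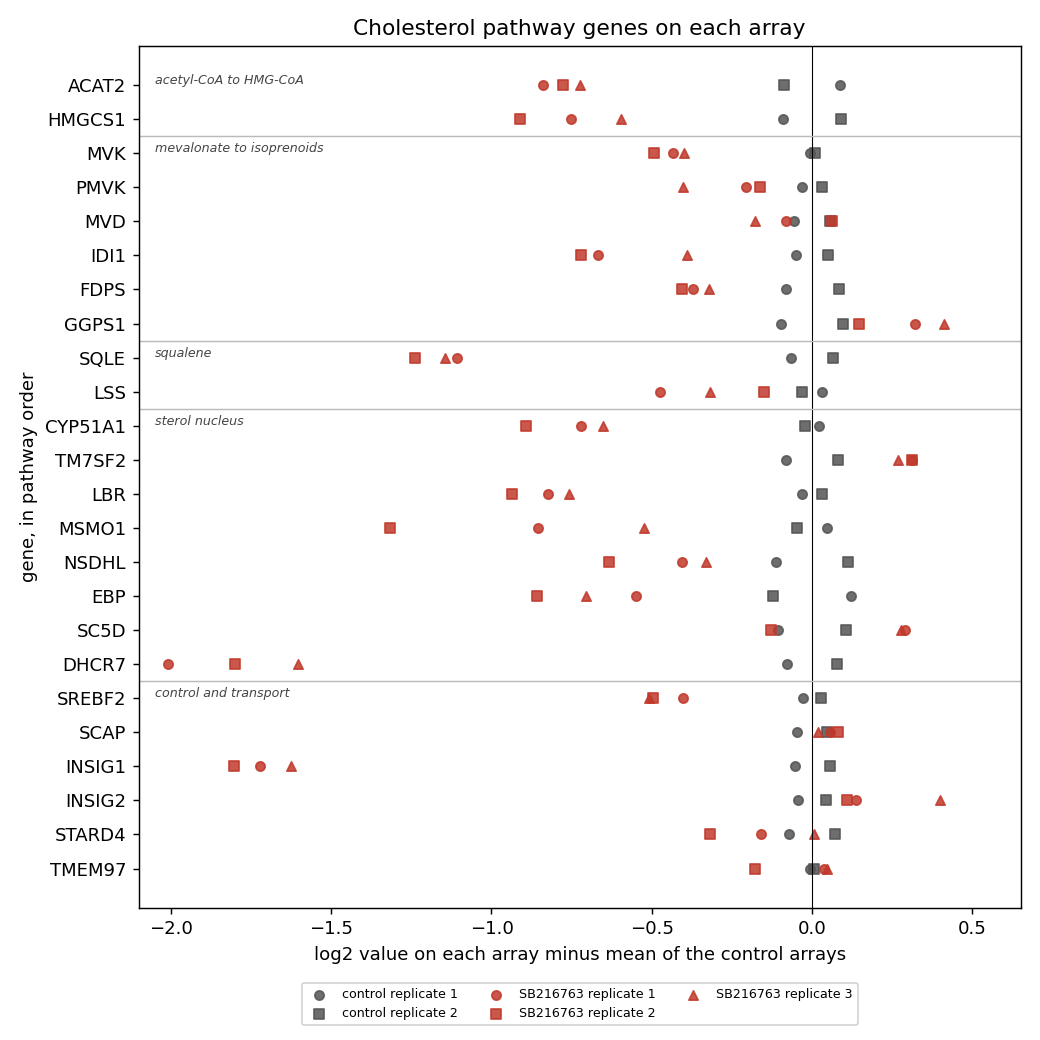
The log2 value of each gene on each array minus the mean of its control arrays, for the 24 measured genes in pathway order; grey marks are the 2 control arrays and red marks the 3 SB216763 arrays. DHCR7, INSIG1 and SQLE lie farthest to the left, while MVD, SC5D, SCAP, STARD4 and TMEM97 have SB216763 values that overlap the control values.

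On the arrays themselves, the SB216763 values lay below both control values for 16 of the 24 genes and above both for 3, which were GGPS1, TM7SF2 and INSIG2. For 5 genes the groups overlapped. Among all genes tested, 19.9% lay below without overlap and 21.6% above. The control arrays differed from each other by a median of 0.11 over the 24 genes and by at most 0.24, for EBP; control replicate 2 was the higher of the pair for 19 of the 24. Within the SB216763 group, replicate 2 held the lowest value of 11 of the 14 genes that fell, and replicate 3 the highest value of 11. The median deviation of all 24 genes from the control mean was -0.42 on SB216763 replicate 1, -0.50 on replicate 2 and -0.39 on replicate 3. Over all genes on the same arrays it was between -0.02 and 0.04.

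The 2 enzymes measured upstream of mevalonate both fell. ACAT2, the thiolase that joins acetyl-CoA units, read 9.37 and 9.19 on the control arrays and 8.44, 8.50 and 8.56 with SB216763. The groups were 0.64 apart at their closest, wider than the range within either group. Its difference was -0.78 (SE 0.09, adjusted p = 0.00220 by limma). HMGCS1, the synthase that makes HMG-CoA, read 8.995 and 9.18 on the control arrays and 8.33, 8.17 and 8.49 with SB216763. Every treated array was again below both controls, and the difference was -0.75 (SE 0.11, adjusted p = 0.00577 by limma).

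Of the 6 enzymes from mevalonate to the isoprenoids, 3 fell, and their median difference was -0.31. MVK, mevalonate kinase, read 7.42 and 7.44 on the control arrays and 6.996, 6.94 and 7.03 with SB216763, and it fell by 0.44 (SE 0.08). IDI1, the isomerase of isopentenyl diphosphate, fell 1.51-fold, from 9.71 ± 0.07 (SD, n = 2) to 9.12 ± 0.18 (SD, n = 3). FDPS, which makes farnesyl diphosphate, fell 1.29-fold, from 9.46 ± 0.12 (SD, n = 2) to 9.09 ± 0.04 (SD, n = 3). FDPS was the weaker of these calls. Its adjusted p was 0.0297 by limma, and 0.0604 with the replicate number as a block. Without SB216763 replicate 1 none of MVK, IDI1 and FDPS was called (adjusted p from 0.0542 to 0.118 by limma), and FDPS was not called without SB216763 replicate 3 either (0.0598).

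The other 3 enzymes of this stage were not called. PMVK, phosphomevalonate kinase, differed by -0.26 (95% interval -0.48 to -0.03, adjusted p = 0.133 by limma), with all treated arrays below both controls. MVD, the decarboxylase that follows it, read 8.43 and 8.55 on the control arrays and 8.41, 8.55 and 8.31 with SB216763. These values overlap, and the interval of the MVD difference, -0.29 to 0.16, does not reach the fitted difference of MVK or IDI1. GGPS1 makes geranylgeranyl diphosphate and so leads away from cholesterol. It read 7.19 and 7.38 on the control arrays and 7.60, 7.43 and 7.70 with SB216763, a difference of 0.29 (95% interval 0.04 to 0.54, adjusted p = 0.124 by limma). With each array centred on its median the GGPS1 difference was 0.24 (unadjusted p = 0.0572 by limma).

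At the squalene stage SQLE had the larger difference of the 2 genes measured. SQLE inserts the oxygen that allows squalene to close into rings, and it is a known slow step of the pathway. It read 10.93 and 11.07 on the control arrays and 9.89, 9.76 and 9.86 with SB216763, so the groups lay 1.04 apart and each spanned 0.13. It fell by 1.16 (SE 0.09, adjusted p = 0.000585 by limma), to 44.6% of the control level. LSS, lanosterol synthase, which closes the rings, read 7.95 and 7.88 on the control arrays and 7.44, 7.77 and 7.60 with SB216763. All 3 treated values were lower, but their spread of 0.32 was about as wide as the difference of -0.31, which was not called (adjusted p = 0.102 by limma). It was called without SB216763 replicate 2 (adjusted p = 0.0336 by limma) and with array weights (adjusted p = 0.00793 by limma).

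Of the 8 measured enzymes that turn lanosterol into cholesterol, 6 fell, and the median difference was -0.73. CYP51A1, the lanosterol demethylase, fell 1.69-fold, from 10.23 ± 0.03 (SD, n = 2) to 9.48 ± 0.12 (SD, n = 3). A second CYP51A1 probe differed by -0.71 (SE 0.08). MSMO1, which removes methyl groups at carbon 4, read 8.27 and 8.18 on the control arrays and 7.37, 6.91 and 7.70 with SB216763. It had the widest spread among treated arrays of the 24 genes, 0.79, and it fell by 0.90 (SE 0.20 by limma). In the linear model with no moderation of variances the SE of MSMO1 was 0.30 and its unadjusted p was 0.0570. Without SB216763 replicate 1 the adjusted p of MSMO1 was 0.0717 by limma. NSDHL, which acts with MSMO1, fell by 0.46 (SE 0.12, adjusted p = 0.0411 by limma). The NSDHL call was lost whichever single array was left out, with adjusted p from 0.0512 to 0.272. EBP, the isomerase of the sterol ring double bond, fell 1.63-fold, from 9.95 ± 0.17 (SD, n = 2) to 9.25 ± 0.15 (SD, n = 3).

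DHCR7 had the largest difference of the 24 genes and the third largest decrease of all genes tested. It read 8.64 and 8.79 on the control arrays and 6.71, 6.91 and 7.11 with SB216763. The lowest control value and the highest treated value were 1.53 apart, while the treated arrays ranged over 0.40. DHCR7 fell by 1.80 (SE 0.12, 95% interval -2.09 to -1.51, adjusted p = 0.000468 by limma), to 28.6% of the control level. SC5D, the desaturase that supplies the substrate of DHCR7, was not called and its groups overlapped. SC5D read 7.15 and 7.36 on the control arrays and 7.54, 7.13 and 7.53 with SB216763, a difference of 0.15 with a 95% interval of -0.18 to 0.48.

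LBR and TM7SF2 are a pair with the same activity, reduction of the sterol double bond at carbon 14; LBR is also a receptor of the inner nuclear membrane that binds lamin B. LBR read 10.87 and 10.93 on the control arrays and 10.08, 9.97 and 10.14 with SB216763, and it fell by 0.84 (SE 0.09, adjusted p = 0.00153 by limma). TM7SF2 read 8.05 and 8.21 on the control arrays and 8.44, 8.44 and 8.40 with SB216763. The treated TM7SF2 values were all above both controls, but the difference of 0.30 (SE 0.08) was not called (adjusted p = 0.0563 by limma). It was called among the brighter genes (adjusted p = 0.0278 by limma), with a variance trend and robust settings (0.0339) and with array weights (0.0126). The log2 ratio of LBR to TM7SF2 within an array changed by -1.14 (SD 0.11 over n = 3 treated arrays and 0.07 over n = 2 controls).

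The regulators also divided into genes that fell and genes that were not called. INSIG1 read 10.76 and 10.87 on the control arrays and 9.09, 9.01 and 9.19 with SB216763, and the groups lay 1.57 apart, more than for any other of the 24 genes. It fell by 1.72 (SE 0.09, 95% interval -1.92 to -1.51, adjusted p = 0.000334 by limma). INSIG2, the related protein with the same role, read 8.14 and 8.23 on the control arrays and 8.32, 8.30 and 8.58 with SB216763. The INSIG2 difference of 0.22 (95% interval -0.03 to 0.46) was not called, and its interval lies wholly above that of INSIG1. The log2 ratio of INSIG1 to INSIG2 within an array changed by -1.93 (SD 0.08 over n = 3 treated arrays and 0.01 over n = 2 controls).

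SREBF2 read 9.95 and 10.01 on the control arrays and 9.58, 9.48 and 9.47 with SB216763. All 3 treated arrays were lower, and SREBF2 fell by 0.47 (SE 0.08, adjusted p = 0.00925 by limma), to 72.2% of the control level. SCAP read 9.31 and 9.40 on the control arrays and 9.41, 9.44 and 9.38 with SB216763, which overlap. Its difference of 0.05 has a 95% interval of -0.13 to 0.23, and it was -0.00 with each array centred on its median. The log2 ratio of SREBF2 to SCAP within an array changed by -0.52 (SD 0.06 over n = 3 treated arrays and 0.03 over n = 2 controls). For the INSIG, LBR and SREBF2 ratios, 3 pairs in all, the 3 treated arrays lay outside both controls. Each pair sets a gene called lower against 1 that was not called, so this follows largely from the values already given. The share over other gene pairs was not computed. An exact permutation test over the arrays, with the one-sided p doubled, gave p = 0.2 for each, and adjusted p = 0.2. That is the smallest value this form can reach with 2 arrays against 3. It cannot fall under 0.05 whatever the values, so the test decides nothing here.

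**Figure D2:**
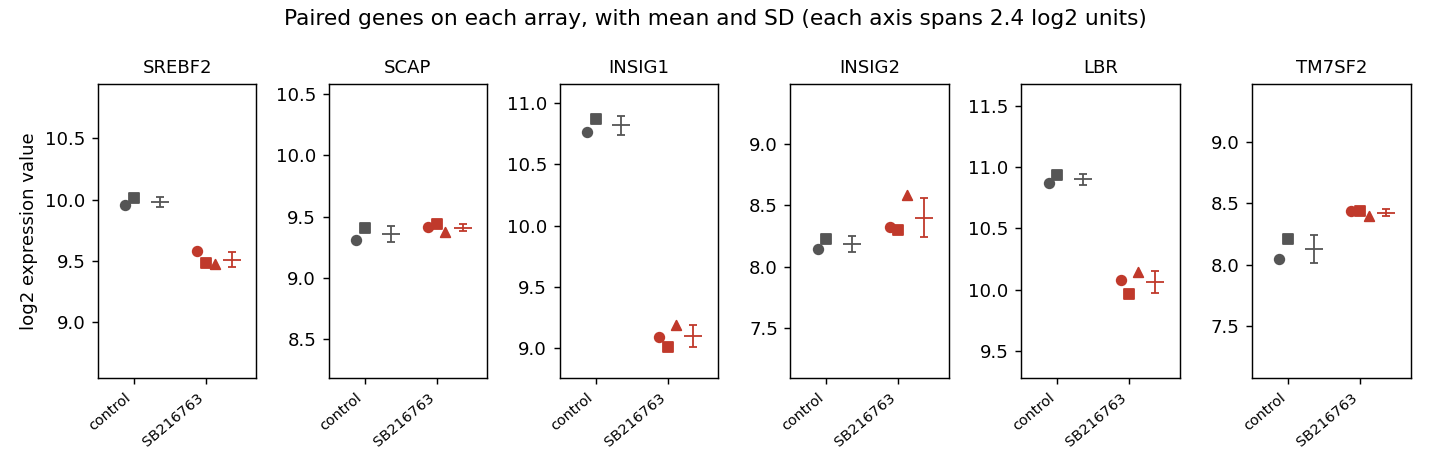
Log2 expression value on each array for SREBF2 and SCAP, INSIG1 and INSIG2, and LBR and TM7SF2, with the mean and SD of each group beside the points. Circles, squares and triangles are replicates 1, 2 and 3, and each panel has its own axis of equal span, since levels of different probes are not comparable. SREBF2, INSIG1 and LBR are lower on all 3 SB216763 arrays, while SCAP overlaps and INSIG2 and TM7SF2 lie slightly above the controls.

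Of the 2 genes of sterol transport, neither was called. STARD4, which carries cholesterol through the cytosol, read 7.86 and 7.999 on the control arrays and 7.77, 7.61 and 7.93 with SB216763. Its difference was -0.16, with a 95% interval of -0.42 to 0.10. TMEM97, the sigma-2 receptor, read 10.17 and 10.18 on the control arrays and 10.22, 10.00 and 10.23 with SB216763, a difference of -0.03 with an interval of -0.25 to 0.19; its sign turned with array weights (0.031) and without SB216763 replicate 2 (0.043).

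**Figure D3:**
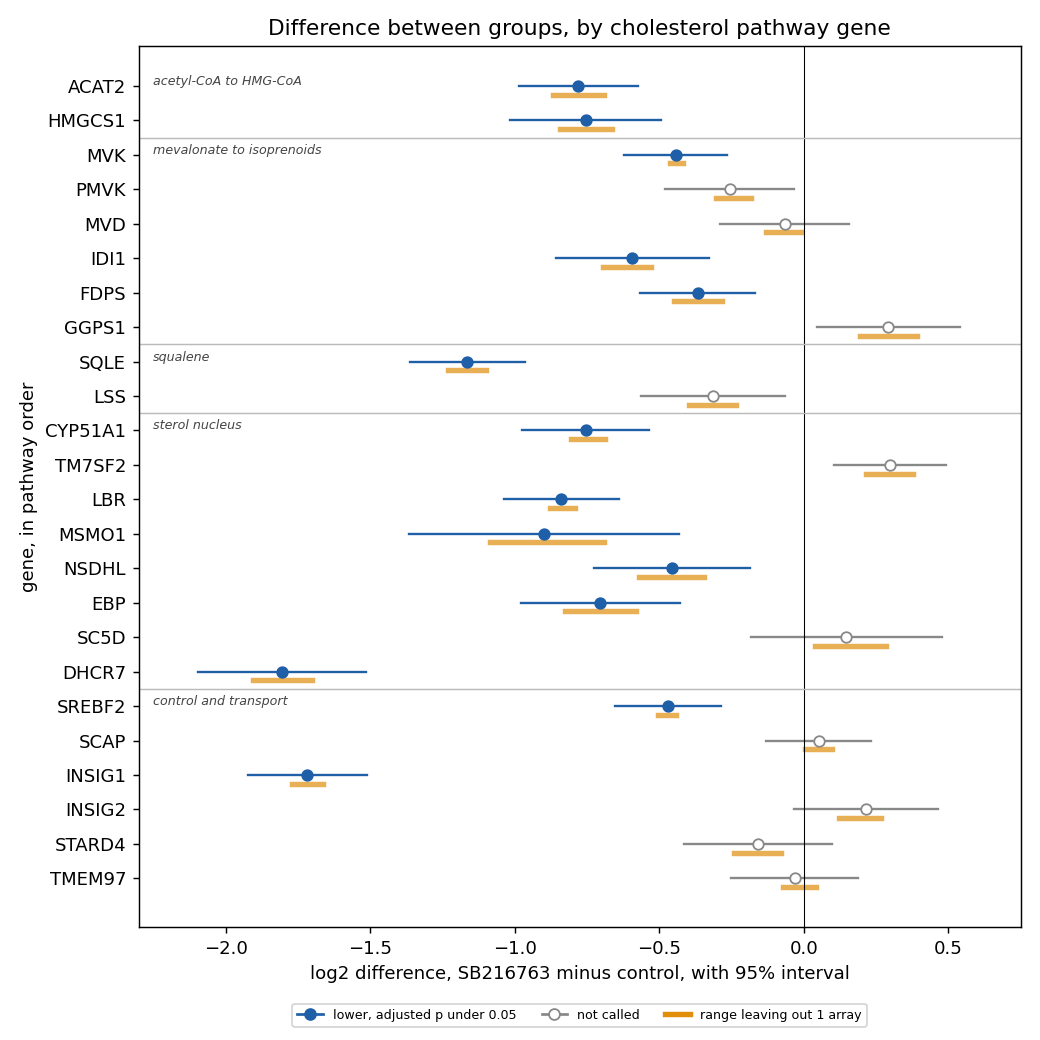
Log2 difference between groups for the 24 measured genes in pathway order, as points with 95% intervals from limma; filled points were called lower and open points were not called. Orange bars give the range of the difference when each array is left out in turn, which for DHCR7 runs from -1.90 to -1.70 and for INSIG1 from -1.77 to -1.66.

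The probes shared with pseudogenes gave smaller differences and cannot be assigned to 1 gene. The probe of HSD17B7 and HSD17B7P2 read 6.62 and 6.50 on the control arrays and 6.59, 6.58 and 6.71 with SB216763, which overlap, with a difference of 0.07 (SE 0.09). The 2 probes shared by FDPS and FDPSP2 differed by -0.31 (SE 0.09) and -0.29 (SE 0.10), beside -0.37 for the probe of FDPS alone. Their adjusted p over all probes was 0.130 and 0.160 by limma, where the probe of FDPS alone had 0.0709.

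**Figure D4:**
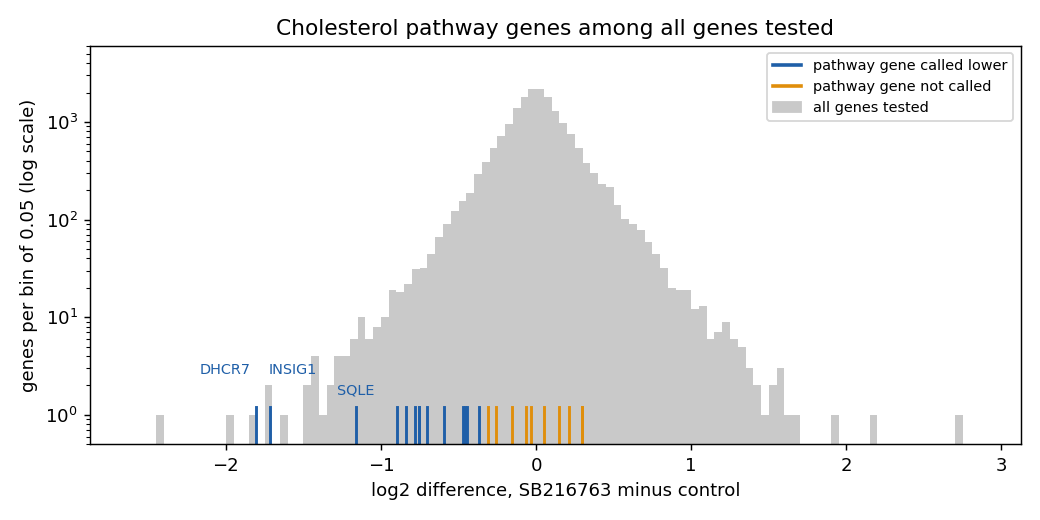
Histogram of log2 differences between groups over all 18417 genes tested, with genes per bin on a log axis; vertical ticks mark the 24 pathway genes, blue where called lower and orange where not called. The ticks run from -1.80 for DHCR7 to 0.30 for TM7SF2, and their median is -0.45 where that of all genes is 0.00.

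Among 18 further genes listed for sterol sensing, SREBP cleavage, sterol storage and movement, 12 were measured; 2 fell and 2 rose, where 5.92% and 7.21% of all genes did. ACLY, which makes cytosolic acetyl-CoA, fell by 0.32 (SE 0.08), and UBE2G2, a ubiquitin-conjugating enzyme of endoplasmic reticulum degradation, by 0.35 (SE 0.07). NPC1 and NPC2, which move cholesterol out of lysosomes, rose by 0.76 (SE 0.09) and 0.47 (SE 0.11). MBTPS1 and MBTPS2, the proteases that cleave SREBP2, differed by -0.10 (adjusted p = 0.542 by limma) and 0.14 (adjusted p = 0.474 by limma). The median over these 12 genes was 0.06. Of 17 listed genes that use isoprenoid diphosphates outside cholesterol synthesis, 14 were measured. RABGGTB, a subunit of the enzyme that prenylates Rab proteins, rose by 0.54 (SE 0.10), ICMT, the methyltransferase of prenylated proteins, fell by 0.35 (SE 0.09), and the other 12 were not called, with a median of 0.02 over the 14. The count of 1 in 14 in each direction is close to the share over all genes. Leaving out either control array, limma called 0 genes of both lists. ACLY, UBE2G2, NPC2 and ICMT were not called without SB216763 replicate 1, without SB216763 replicate 3 or with the replicate number as a block, nor was RABGGTB without SB216763 replicate 1 or ICMT without SB216763 replicate 2 or with array weights.

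Promoters were examined because many of these genes moved together. RefSeq windows of GRCh38.p14, from 250 bases before to 50 after a gene start, were at hand for 23 of the 26 genes, in 31 windows, and both strands were searched. The letters TCACNCCAC, a form of the sterol regulatory element that SREBP binds, were found in 1 of the 23 genes, SREBF2, and in 1.39% of the 27305 genes with a window. The stricter classical element, the same letters with an A before them and C in the open place, was the one in SREBF2 and was held by 0.0586% of all genes with a window. The core CACNCCAC, contained in both and searched after their counts were seen, was in SREBF2, INSIG1, IDI1 and SC5D, and in 7.05% of all genes with a window. The box CCAAT, bound by NF-Y, a usual partner of SREBP, was in 18 of the 23 genes, and in 39.7% of all genes with a window. It was in 10 of the 12 genes with a window that fell and in 7 of the 10 that were not called. GGGCGG, the Sp1 box, was in 21 of the 23 and in 48.3% of all genes with a window. The Sp1 box was in 10 of the 12 that fell and in 10 of the 10 that were not called. A match is a description of letters and not a binding site, and binding was not measured here.

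The stretches that hold these letters before the start are printed for 5 genes that fell, SREBF2, INSIG1, HMGCS1, MSMO1 and EBP, and for 2 that were not called, MVD and TMEM97. They are shown because genes of both kinds carry the NF-Y letters. Capitals mark CCAAT on either strand (ATTGG where it runs the other way) and, in SREBF2 and INSIG1, the sterol element or its core. Each is written in the direction of its gene, from RefSeq, build GRCh38.p14.
SREBF2 (chr22:41832961-41833013, plus strand): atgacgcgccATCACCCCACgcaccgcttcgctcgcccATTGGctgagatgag
INSIG1 (chr7:155297660-155297722, plus strand): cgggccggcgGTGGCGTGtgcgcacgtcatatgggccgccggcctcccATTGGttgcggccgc
HMGCS1 (chr5:43313498-43313577, minus strand): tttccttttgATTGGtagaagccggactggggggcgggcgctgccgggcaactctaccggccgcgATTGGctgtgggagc
MSMO1 (chr4:165327474-165327649, plus strand): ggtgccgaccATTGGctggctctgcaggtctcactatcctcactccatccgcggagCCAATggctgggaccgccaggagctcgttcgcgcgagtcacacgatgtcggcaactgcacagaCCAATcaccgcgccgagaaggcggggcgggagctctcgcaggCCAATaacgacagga
EBP (chrX:48521607-48521792, plus strand): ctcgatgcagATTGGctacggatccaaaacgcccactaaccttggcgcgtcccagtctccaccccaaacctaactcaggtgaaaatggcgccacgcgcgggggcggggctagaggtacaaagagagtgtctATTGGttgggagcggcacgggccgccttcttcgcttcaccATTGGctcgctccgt
MVD (chr16:88663162-88663260, minus strand): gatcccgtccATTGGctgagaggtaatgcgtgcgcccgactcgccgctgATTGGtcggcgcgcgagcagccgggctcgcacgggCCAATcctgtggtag
TMEM97 (chr17:28318992-28319129, plus strand): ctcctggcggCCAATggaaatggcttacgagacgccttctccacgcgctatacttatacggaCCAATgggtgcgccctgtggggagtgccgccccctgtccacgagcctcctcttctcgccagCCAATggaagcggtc

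SREBF2 has the sterol element first and an inverted NF-Y box after it, from 134 and 106 bases before the start. INSIG1 has the core on the opposite strand 208 bases before the start and 1 inverted NF-Y box. HMGCS1 has 2 NF-Y boxes before its start, MSMO1 4, and EBP, MVD and TMEM97 3 each. The printed genes were picked to show both kinds. Numbers of boxes were not compared between all genes that fell and all that were not called. Any part of the boxes in the differences of these genes was not tested. The stretches of SREBF2 and INSIG1 also overlap the annotated noncoding genes SREBF2-AS1 and INSIG1-DT.

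Over 33297 probes the medians were 6.77 and 6.80 on the control arrays and 6.81, 6.84 and 6.81 with SB216763, so every treated array was above both controls. Of 10 measured markers of B cell precursors, 4 or 5 were above background on each array; CD22, VPREB1, DNTT, RAG1 and CD24 were above it on none, while CD79B, IGLL1, PAX5 and CD38 were above it on all. CD38 fell by 0.74, and the summed linear level of the 10 markers was 1154 to 1219 on the control arrays and 921 to 1062 with SB216763, while 7 of the 10 had a positive difference and the median was 0.03. All 9 measured myeloid markers were above background on every array. Of these, 4 were called higher, CD68, CSF3R, LYZ and TYROBP, where 7.21% of all genes were. The other 5 were not called, and 3 of the 9, MPO, ELANE and CD14, had a negative difference. The median of the 9 differences was 0.27. The summed linear level of the 9 markers was 9539 to 9814 on the control arrays and 16087 to 16472 with SB216763. Of 8 T and NK cell markers 2 or 3 were above background on each array. CD3D, CD3E, CD3G, CD2 and GNLY were above it on none, CD8A and NKG7 on all 5 arrays, and CD5 on 1. The summed level of the 8 was 1736 to 1797 on the control arrays and 2829 to 2991 with SB216763; NKG7 was the 1 gene called, higher by 0.88, and the median of the 8 differences was -0.04. Of 4 erythroid markers 1 to 3 were above background on each array, with a summed level of 447 to 488 on the control arrays and 352 to 463 with SB216763. The part of these marker levels in the sterol gene results was not tested, and fewer cells of a type and less RNA per cell cannot be told apart in bulk RNA. Over all genes 1090 were called lower and 1328 higher, and with each array centred on its median 1536 and 1048.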

How the data were processed

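The 5 arrays of RS4;11 RNA, 2 control and 3 SB216763, were grouped by sample title. The authors deposited 1 table of log2 values per probe, made with Affymetrix Expression Console per the submitters' processing notes. The log2 scale was read from the range of 1.95 to 14.84. No source used here gives the version, the summarisation or the genome build. No further normalization was applied.

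Of 33297 probes, 19460 named exactly 1 gene symbol in the platform annotation, 1754 several, and 12083 were unnamed here. Per gene the probe with the highest mean over the 5 arrays was kept. A level counted as above background where it exceeded that of 95% of 341 olfactory receptor genes on the same array, 5.98 to 6.19. The test was limma 3.58.1 (R 4.3.3; lmFit, eBayes; two-sided; 7.62 total degrees of freedom), with Benjamini-Hochberg adjustment over 18417 genes. The limma SEs, intervals and p-values rest on variances that eBayes drew toward those of other genes. Of the total degrees of freedom, 4.62 came from those other genes. The procedure was run on simulated data with independent noise and planted changes. Such a run does not bear on whether these arrays came from separate cultures. Tables, figures and permutations used pandas 2.3.3, matplotlib 3.10.9 and scipy 1.17.1.

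All 24 measured genes were named; of the 2 further pathway lists, genes called were named, and MBTPS1 and MBTPS2 after their values were seen. The genes and lists were chosen with earlier results of these data known. Other settings tried were leaving out dim genes, quantile normalization, median centring, averaging probes per gene, an ordinary fit without moderation, a robust fit with a variance trend, array weights, a replicate block and omitting each array. Testing all probes singly and the core promoter letters were added after seeing the data. The ratios of paired genes were not in the plan either. A planned comparison of protein sequences was not run.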

Additional observations from a re-analysis of the deposited data

How the results depend on the processing

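Of the 24 genes, 14 were called lower in the main setting. That count was 2 without moderation and 0 to 14 when each array was left out (0 without control replicate 1 or 2, 9 without SB216763 replicate 1, 14 without replicate 2 and 12 without replicate 3); it was 10 to 15 in the other settings. Without SB216763 replicate 1, MVK, IDI1, FDPS, MSMO1 and NSDHL lost their calls. With all probes tested singly, an alternative chosen after seeing the data, IDI1, FDPS, MSMO1 and NSDHL did. The count called higher was 0, but 1 without dim genes and 1 with the variance trend (TM7SF2 in both), and 2 with array weights (GGPS1 and TM7SF2). The median difference lay between -0.50 and -0.39 in all settings. Signs turned for SCAP with centred arrays (-7.5e-05) and for TMEM97 with array weights (TMEM97 0.031) and without SB216763 replicate 2, where leaving out 1 array gave TMEM97 differences of -0.070 to 0.043; neither gene was called in any setting.

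Same-numbered arrays did not deviate together (r = -0.05 for number 1 and -0.10 for number 2), so the numbers were not taken as pairs. With the replicate block 13 genes were called lower, FDPS being lost, and the median difference was -0.46; over all genes 889 were lower and 941 higher.

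Of the further pathway genes, 2 were lower and 2 higher. Lower and higher counts were 1 and 0 without moderation, 0 and 1 with the replicate block, 0 and 1 with all probes tested singly, and 0 to 2 and 0 to 2 leaving out 1 array. Of the isoprenoid branch genes, 1 was lower and 1 higher. The lower count was 2 without dim genes, with quantile normalization, with centred arrays and with the variance trend, and 0 without moderation, with the replicate block, with all probes tested singly and without each array. The higher count was 3 without dim genes and with the variance trend, 4 with array weights, 0 without moderation, and 0 to 2 leaving out 1 array. The causes were not tested, beyond the fewer genes or arrays that a setting uses.

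Over all genes, lower and higher counts were 125 and 126 without moderation, 2152 and 2568 with array weights, 1 and 0 without control replicate 1, 0 and 0 without control replicate 2, and 453 and 540 without SB216763 replicate 1. Omitting a control array leaves a lone one, whose variance is then taken from the treated group. The number of arrays limits the precision.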
